A study of Homo sapiens with 10 samples.

Results

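Solute carriers (SLC) are membrane proteins that move amino acids, sugars, ions, metals, nucleosides, vitamins and lipids across the plasma membrane and the membranes of organelles. They work as facilitators, exchangers or cotransporters that draw on existing gradients, whereas P-type pumps and the vacuolar proton pump spend ATP. The families are numbered by sequence likeness, and members of a family often carry related solutes. Some carriers reach the membrane only with a partner chain, such as SLC3A2 for the SLC7 amino acid exchangers and BSG (basigin) for the SLC16 monocarboxylate carriers.

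The 150 genes described here have a symbol that starts with SLC and a digit, out of 10631 genes listed in the 10 libraries. The SLC25 carriers of the inner mitochondrial membrane (36 genes) and the carriers SLC2A1, SLC2A3 and SLC16A3 were left out. A gene counted as a member when any of the 10 libraries listed it, since only 2 genes, SLC1A5 and SLC30A9, were listed in all of them. For 54 gene IDs no symbol was found, so a carrier among them would have been missed. The symbols of 4 members do not name carriers: SLC4A1AP is an adaptor, SLC2A4RG a regulator of SLC2A4, and SLC7A6OS and SLC22A18AS lie on the strand opposite to a carrier gene.

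The data are PacBio long reads of polyadenylated RNA carrying Ribo-STAMP marks. Ribo-STAMP couples APOBEC1, an enzyme that deaminates cytidine, to the ribosomal protein RPS2, and mRNA bound by ribosomes then gains C-to-U changes. APOBEC1 alone gives the editor's background. The breast cancer line MDA-MB-231, which is triple-negative, expressed doxycycline-inducible Ribo-STAMP in all 4 libraries: 2 were from cells given 100 uM CoCl2, a chemical inducer of the hypoxia response, for 48 h, and 2 from untreated cells, all with 48 h of doxycycline at 1 ug/mL. HEK293T, a human embryonic kidney line, carried doxycycline-inducible Ribo-STAMP (3 libraries) or APOBEC1-only (3 libraries), without other treatment, with 72 h of doxycycline at 1 ug/mL. Both groups of MDA-MB-231 cells carried the ribosome-fused editor, so the comparison with CoCl2 has no library of the editor alone. The labels number the replicates without saying that they were separate cultures, so a p-value here speaks only of the spread among these libraries, and part of that spread may be technical. Library kits and induction times differed between the lines, so no test was made between them.

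Of the 150 members, 134 were listed in MDA-MB-231 and 100 in HEK293T, with 84 in both, 50 in MDA-MB-231 alone and 16 in HEK293T alone. In MDA-MB-231, 85 members were listed in all 4 libraries, and in HEK293T 4 members were listed in all 6. By family number they fell into 6 classes, which also hold the 4 members whose symbols do not name carriers. Amino acid carriers numbered 27 genes, sugar and carboxylate carriers 23, carriers of major ions and protons 22, carriers of zinc, copper, iron and other trace metals 20, SLC35 nucleotide-sugar carriers and their relatives 22, and carriers of other organic solutes, vitamins and lipids 36.

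Total edited reads were 172625 and 155572 in CoCl2 libraries against 177069 and 158721 in untreated libraries. They were 65792, 50908 and 59227 in Ribo-STAMP HEK293T libraries against 3498, 3173 and 2971 in APOBEC1-only libraries. All 10 of the 10 fixed MDA-MB-231 markers were listed in both MDA-MB-231 groups, with summed levels of 39.7 to 43.2 edited reads per 10000 in CoCl2 libraries and 33.8 to 36.6 in untreated libraries. In HEK293T, 2 of those markers were listed in Ribo-STAMP libraries (summed level 0 to 4.90) and 1 in APOBEC1-only libraries (0 to 3.15). Of 8 HEK293T markers, 3 were listed in both HEK293T groups, and NEFL, PAX2, ZIC2, ELAVL3 and DLK1 were at 0. In MDA-MB-231 the summed level of the HEK293T markers was 7.46 to 8.40 per 10000 in CoCl2 libraries and 2.43 to 4.599 in untreated libraries, nearly all from CKB, which was listed in both lines. Among 15 tested genes of a hypoxia list, read coverage was higher with CoCl2 for 7 and lower for 1, SLC2A1. Of all tested genes 24.5% were higher and 19.1% lower. BNIP3, a mitophagy receptor induced by hypoxia, had 702 and 549 covering reads in CoCl2 libraries against 214 and 206 in untreated libraries.

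The MDA-MB-231 libraries listed 4364 edited SLC positions, of which 75.1% were in 1 library, 16.9% in 2, 7.95% in 3 and none in all 4. Over all genes the shares were 67.7% in 1 library, 20.9% in 2, 11.5% in 3 and none in 4. As no position of any gene was listed in all 4 libraries, positions shared by all may have been left out of the files, and the positions below are recurrent only among those listed. In 85.5 to 88.1% of SLC entries per library a single read was edited, against 79.5 to 82.4% of all entries.

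The most edited of the listed SLC positions show what such a mark looks like in its transcript. For 11 members, chosen for their coverage or their change with CoCl2, the position with the most edited reads among those listed in 3 libraries is shown with 12 bases on each side. The sequences are mRNA-sense coding sequence of GENCODE 29 transcripts on GRCh38, written as DNA from 5′ to 3′, and the capital C is the edited cytidine.
SLC3A2, chromosome 11, position 62885299, plus strand, exon 9: ctggggagcataCaaaatccctagt
SLC43A3, chromosome 11, position 57414617, minus strand, exon 11: aagcaagaaagaCaggttcctccac
SLC44A2, chromosome 19, position 10634866, plus strand, exon 11: tacctgcacttaCggcagacctggt
SLC1A5, chromosome 19, position 46787414, minus strand, exon 1: gctcgattcgttCctggatcttgcg
SLC35F2, chromosome 11, position 107792672, minus strand, exon 8: cattgggattgaCaacctggggctg
SLC29A1, chromosome 6, position 44231424, plus strand, exon 9: actctcagcccaCcaatgaaagcca
SLC39A3, chromosome 19, position 2732814, minus strand, exon 3: tgaccgtctgctCaaggtcctcttc
SLC39A1, chromosome 1, position 153962265, minus strand, exon 3: cctgctgcctgaCtacctggctgcc
SLC39A13, chromosome 11, position 47415106, plus strand, exon 9: tggcggctttctCtacatcgccttg
SLC35B2, chromosome 6, position 44255200, minus strand, exon 4: ccagccaccacaCtctcaggcctca
SLC36A4, chromosome 11, position 93168009, minus strand, exon 7: aatctatttgtaCtttcattccttg

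All 11 positions lie in coding exons. The base before the edited cytidine was A in 8 of them and T in 3. A C-to-U change would alter the amino acid at 6 positions and be synonymous at 5. Edited reads summed over the libraries ranged from 8 (SLC36A4 and SLC35B2) to 16 (SLC3A2). The share of covering reads that carried the edit ranged from 0.28% in SLC1A5 to 3.93% in SLC35F2.

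The preceding base followed the same preference over all edited SLC positions, with A or U before 78.6 to 81.0% of them per library, against 80.0 to 81.3% over all genes. Among all coding cytidines of the SLC isoforms 40.8% followed A or U, against 42.6% for all genes. SLC coding sequence was richer in C, at 29.6% of bases against 25.3% for all listed genes and 25.2% for SLC25 genes. Of SLC coding cytidines, 4.24% would give a stop codon on conversion, against 7.10% for all genes, and 50.9% would be synonymous, against 44.2%. Of the edited SLC positions 2.92 to 3.73% would give a stop codon, against 5.72 to 5.91% for all genes, and 54.3 to 57.3% were synonymous, against 49.6 to 50.9%.

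Levels of editing were compared between genes only per coding cytidine, as edited reads per 100 covering reads per 100 coding C, averaged over the 4 MDA-MB-231 libraries. The members had a median level of 5.75, with quartiles of 4.38 and 8.48. All genes had a median of 7.13, with quartiles of 4.49 and 10.9, and SLC25 genes a median of 5.88. The median was 6.13 for amino acid carriers, 5.27 for sugar and carboxylate carriers, 6.25 for ion carriers, 7.83 for trace metal carriers, 5.15 for SLC35 genes and 6.02 for the other organic solute carriers. The highest levels were 18.9 in SLC35E3, 18.1 in SLC36A4, 17.2 in SLC39A6, 14.8 in SLC39A8 and 14.3 in SLC50A1. The lowest were 1.70 in SLC35A4, 1.93 in SLC1A5, 2.00 in SLC30A1, 2.47 in SLC45A3 and 2.51 in SLC29A1. Of the lowest 5, SLC1A5, SLC29A1 and SLC35A4 are among the members with the most covering reads, while SLC3A2, also among them, had a level of 10.6. The highest 5 all had far fewer covering reads than SLC3A2, but so did SLC30A1 and SLC45A3 among the lowest 5. Only isoforms with an edit in every library enter, so a gene with few covering reads cannot show a very low level. If positions shared by all 4 libraries were left out of the files, their edits are missing from these levels, also in genes with many covering reads. The part of coverage in this ranking was not tested. The levels are descriptions, without a test.

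**Figure D1:**
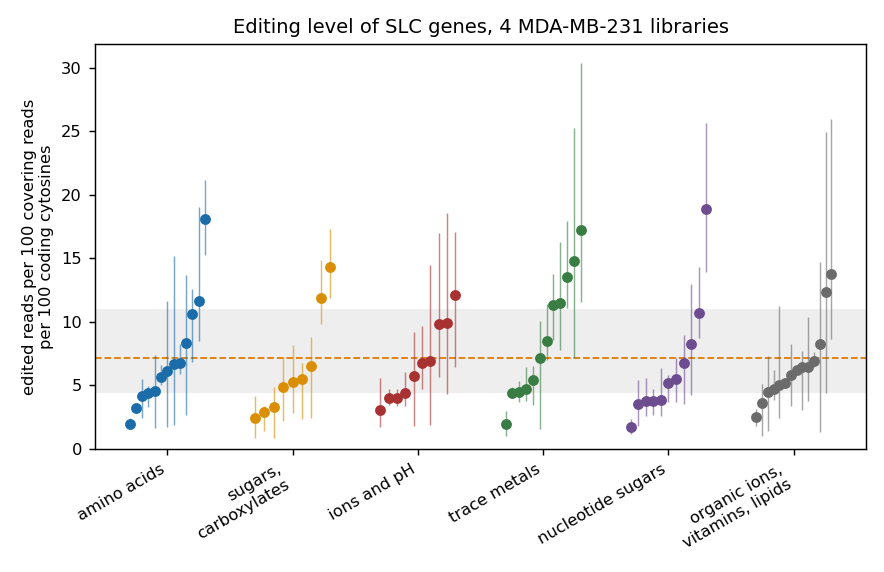
Editing level (edited reads per 100 covering reads per 100 coding C) of SLC genes by class, with each point the mean of the 4 MDA-MB-231 libraries, each line the lowest to highest library, and the dashed line and band the median (7.13) and quartiles of all genes. Most points lie at or below the dashed line, and the highest, at 18.9 and 18.1, are SLC35E3 and SLC36A4.

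The main comparison asks what CoCl2 did to SLC mRNA in MDA-MB-231. Read coverage, a stand-in for mRNA amount, is the median number of reads over an isoform's listed positions in a library. It was summed over the isoforms listed in all 4 libraries and scaled between libraries with TMM (trimmed means of log ratios). Only 81 of the 134 members had such an isoform, and 12 of those had a mean coverage under 10, so 69 were tested. With CoCl2, coverage was higher for 6 of the 69 and lower for 15 at an adjusted p under 0.05 (limma across 5661 genes, Benjamini-Hochberg). The background was 24.5% of all tested genes called higher and 19.1% called lower. The median change over the 69 members was -0.30 (log2), against -0.03 over all genes, with 24 members positive and 45 negative. The CoCl2 and untreated values did not overlap, with CoCl2 higher, for 15 members (background 39%) and, with CoCl2 lower, for 33 (background 39.1%). Genes picked by a test on these same values mostly do not overlap either, so non-overlap of the called genes below adds no support. In bulk RNA, fewer expressing cells and less RNA per cell cannot be told apart.

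**Figure D2:**
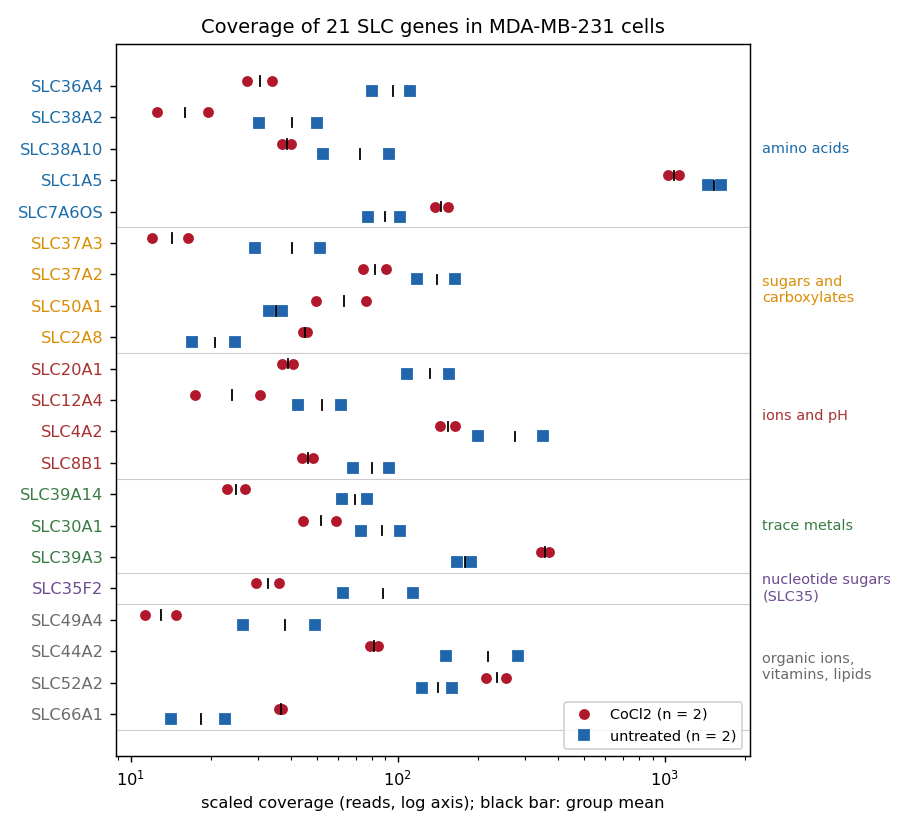
TMM-scaled coverage on a log axis of the 21 SLC genes past the threshold, with each point a CoCl2 or untreated library and black bars for group means. The points of the groups do not overlap for any of the 21 genes, which were picked by the test on these same values. Of all tested genes, 39% do not overlap with CoCl2 higher and 39.1% with CoCl2 lower. SLC1A5 has the most reads.

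Carriers of major ions and protons were the class with the most one-sided values: all 10 tested members were negative, with a median of -0.73 (log2). Of them 4 were called lower and none higher (all genes 19.1% and 24.5%). All 10 were also negative under the other scaling, and 8 of 10 (1 called lower, median -0.32) with the length trend described below taken out. SLC20A1, a sodium-phosphate cotransporter (chromosome 2, 112645857 to 112663827, plus strand, GRCh38), had 37.0 and 40.4 covering reads in CoCl2 libraries against 156 and 108 in untreated libraries. Its log2 change of -1.72 (SE 0.275, adjusted p = 0.00114) was the largest decrease among the members. SLC12A4, a potassium-chloride cotransporter that serves cell volume control, had 17.5 and 30.6 covering reads in CoCl2 libraries against 61.4 and 42.4 in untreated libraries (log2 -1.11, SE 0.351, adjusted p = 0.0168). Every CoCl2 value of these genes lay below every untreated value. SLC4A2, a chloride-bicarbonate exchanger, had 144 and 164 covering reads in CoCl2 libraries against 350 and 199 in untreated libraries (log2 -0.78, SE 0.251, adjusted p = 0.0182). SLC8B1, the sodium-calcium exchanger of mitochondria, had 48.3 and 43.7 covering reads in CoCl2 libraries against 92.6 and 67.9 in untreated libraries (log2 -0.77, SE 0.282, adjusted p = 0.0326). For both, the untreated libraries differed more from each other than the CoCl2 libraries did. The 6 other genes of this class that were tested, SLC4A1AP among them, had log2 changes between -1.01 (SLC12A9) and -0.12 (SLC41A3).

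Of 13 amino acid carriers tested, 4 were called lower and 1 higher (all genes 19.1% and 24.5%), with a median change of -0.45 (log2). SLC36A4, a high-affinity carrier of proline and tryptophan (chromosome 11, 93144171 to 93197964, minus strand), had 33.9 and 27.3 covering reads in CoCl2 libraries against 111 and 80.2 in untreated libraries. The lowest untreated value was well above the highest CoCl2 value, and the log2 change was -1.60 (SE 0.294, adjusted p = 0.00165). SLC38A2, a sodium-coupled carrier of small neutral amino acids, had 19.5 and 12.6 covering reads in CoCl2 libraries against 50.1 and 30.2 in untreated libraries (log2 -1.26, SE 0.387, adjusted p = 0.0144). SLC38A10, of the same family, had 37.0 and 39.8 covering reads in CoCl2 libraries against 92.6 and 52.4 in untreated libraries (log2 -0.84, SE 0.311, adjusted p = 0.0343). Both were low in CoCl2 libraries without overlap, and for both the first untreated library was the highest. SLC1A5, which exchanges glutamine and other neutral amino acids, was the carrier with the most covering reads, 1029 and 1132 in CoCl2 libraries against 1623 and 1447 in untreated libraries. Its decrease was among the smallest that passed the test (log2 -0.50, SE 0.183, adjusted p = 0.0316).

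The single call upwards in this class, SLC7A6OS, had 154 and 138 covering reads in CoCl2 libraries against 77.4 and 102 in untreated libraries (log2 0.71, SE 0.247, adjusted p = 0.0270). The gene does not encode a carrier, and it is uncertain: it lies on the minus strand of chromosome 16, from 68284503 to 68310946, and overlaps SLC7A6 on the plus strand, from 68264516 to 68301823, with no source used here saying whether reads were counted by strand. SLC3A2, the heavy chain that SLC7 exchangers need at the membrane, had 472 and 436 covering reads in CoCl2 libraries against 310 and 373 in untreated libraries, which did not pass the test (adjusted p = 0.0981). SLC7A5, its light chain for large neutral amino acids, had 211 and 191 covering reads in CoCl2 libraries against 170 and 158 in untreated libraries (adjusted p = 0.285). SLC43A3, a purine nucleobase transporter, had 871 and 942 covering reads in CoCl2 libraries against 1375 and 1013 in untreated libraries (adjusted p = 0.111). For all of these carriers the groups did not overlap, but no difference passed the test.

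Among 9 genes of the sugar and carboxylate class tested, 2 were called higher and 2 lower (all genes 24.5% and 19.1%). The median change was 0.27 (log2). That median is the value of SLC2A4RG, which is in the class by its symbol but is not a carrier. SLC2A8, a glucose transporter of intracellular membranes (chromosome 9, 127397138 to 127408424, plus strand), had 44.2 and 45.8 covering reads in CoCl2 libraries against 17.0 and 24.5 in untreated libraries. It had the largest increase among the members (log2 1.10, SE 0.344, adjusted p = 0.0155). SLC50A1, a sugar transporter, had 49.4 and 76.4 covering reads in CoCl2 libraries against 36.8 and 33.0 in untreated libraries (log2 0.80, SE 0.309, adjusted p = 0.0415). In the other direction, the sugar-phosphate exchanger family members SLC37A3 and SLC37A2 were both lower with CoCl2. SLC37A3 had 16.5 and 12 covering reads in CoCl2 libraries against 51.0 and 29.2 in untreated libraries (log2 -1.40, SE 0.392, adjusted p = 0.00906). SLC37A2 had 74.0 and 90.6 covering reads in CoCl2 libraries against 163 and 118 in untreated libraries (log2 -0.75, SE 0.255, adjusted p = 0.0231). None of the 4 overlapped between groups. SLC10A3, with SLC37A2 the member of this class with the most covering reads, had 116 and 144 covering reads in CoCl2 libraries against 83.1 and 97.2 in untreated libraries (adjusted p = 0.0895).

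Of 12 trace metal carriers tested, 1 was called higher and 2 lower (all genes 24.5% and 19.1%), with a median change of -0.34 (log2). SLC39A3, a zinc importer (chromosome 19, 2732204 to 2740152, minus strand), had 370 and 345 covering reads in CoCl2 libraries against 167 and 189 in untreated libraries. This was an increase of 1.00 (log2, SE 0.212, adjusted p = 0.00216), with both CoCl2 values far above both untreated values. SLC39A14, an importer of zinc, iron and manganese from the same family, had 26.7 and 22.9 covering reads in CoCl2 libraries against 76.5 and 61.8 in untreated libraries (log2 -1.44, SE 0.308, adjusted p = 0.00233). SLC30A1, the zinc exporter of the plasma membrane, had 44.2 and 58.9 covering reads in CoCl2 libraries against 102 and 72.6 in untreated libraries (log2 -0.74, SE 0.284, adjusted p = 0.0397). The groups of these 3 genes did not overlap. The zinc carriers with the most covering reads did not pass: SLC39A1 had 441 and 446 in CoCl2 libraries against 342 and 397 in untreated libraries (adjusted p = 0.273), and SLC39A13, a zinc carrier of the secretory pathway, had 336 and 346 in CoCl2 libraries against 239 and 266 in untreated libraries (adjusted p = 0.0901).

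Of 11 SLC35 genes tested, 1 was called lower and none higher (all genes 19.1% and 24.5%), with a median change of -0.22 (log2). SLC35F2 had 36 and 29.5 covering reads in CoCl2 libraries against 114 and 62.3 in untreated libraries (log2 -1.35, SE 0.315, adjusted p = 0.00372). SLC35A4, the member of this family with the most covering reads, had 331 and 409 in CoCl2 libraries against 458 and 474 in untreated libraries (adjusted p = 0.171). SLC35B2, which brings the sulfate donor PAPS into the Golgi, had 344 and 358 covering reads in CoCl2 libraries against 263 and 351 in untreated libraries, and these overlapped (adjusted p = 0.422). SLC35A2, the Golgi UDP-galactose carrier, had 129 and 167 covering reads in CoCl2 libraries against 146 and 153 in untreated libraries (adjusted p = 0.923).

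Of 14 carriers of other organic solutes, vitamins and lipids, 2 were called higher and 2 lower (all genes 24.5% and 19.1%). Their median change was -0.07 (log2). SLC52A2, a riboflavin transporter, had 255 and 214 covering reads in CoCl2 libraries against 124 and 160 in untreated libraries (log2 0.73, SE 0.230, adjusted p = 0.0169). SLC66A1, which exports cationic amino acids from lysosomes, had 37.0 and 36 covering reads in CoCl2 libraries against 14.2 and 22.6 in untreated libraries (log2 0.99, SE 0.369, adjusted p = 0.0364). Both were higher with CoCl2 without overlap. SLC44A2, a choline transporter-like protein, had 84.3 and 78.6 covering reads in CoCl2 libraries against 283 and 152 in untreated libraries (log2 -1.34, SE 0.270, adjusted p = 0.00200). SLC49A4, a lysosomal carrier (chromosome 3, 122794795 to 122881139, plus strand), had 11.3 and 14.7 covering reads in CoCl2 libraries against 49.1 and 26.4 in untreated libraries (log2 -1.41, SE 0.405, adjusted p = 0.0101). Both were lower, again without overlap. SLC29A1, the equilibrative nucleoside transporter, had 1116 and 1172 covering reads in CoCl2 libraries against 957 and 1114 in untreated libraries (adjusted p = 0.520). SLC17A9, the vesicular nucleotide carrier, had 142 and 151 covering reads in CoCl2 libraries against 147 and 142 in untreated libraries (adjusted p = 0.965).

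**Figure D3:**
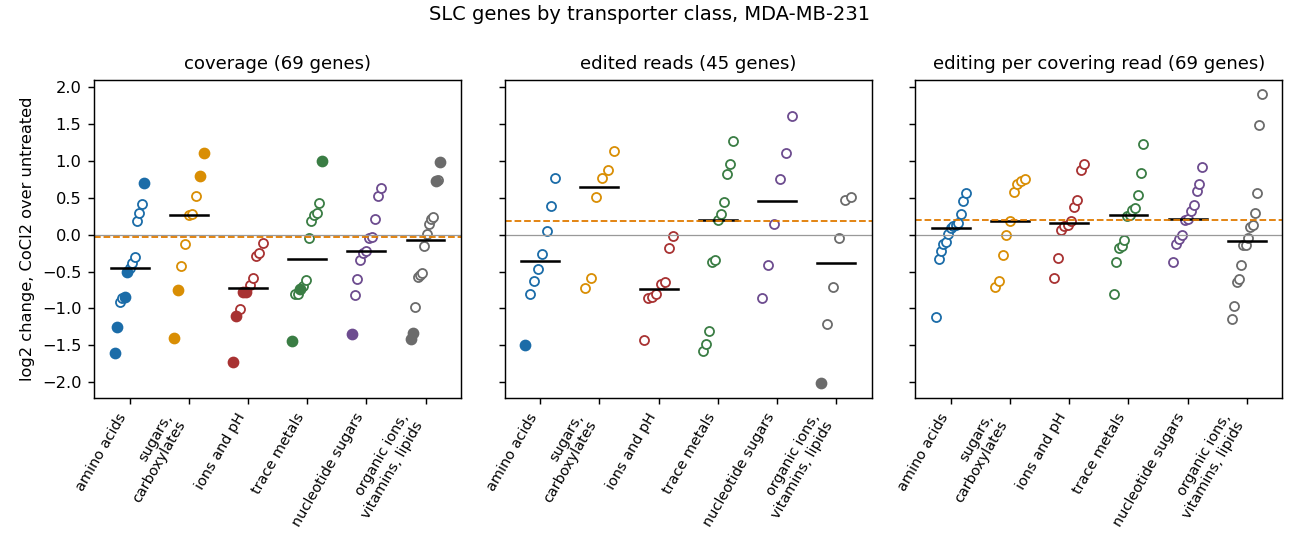
Log2 change, CoCl2 over untreated MDA-MB-231, of SLC genes by class in coverage, edited reads and editing per covering read, with filled points for genes past the threshold, bars for class medians and a dashed line for the median of all genes. All genes of the ion class lie below 0 in coverage (10 genes) and edited reads (8 genes), and no point is filled for editing per covering read.

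Transcript length moved with these changes. Over all tested genes, divided by length into 4 groups of like size, coverage was higher for 64.6% of the shortest group and 5.41% of the longest. It was lower for 0.925% of the shortest group and 32% of the longest. The tested members had a median length of 3046 bases against 2515 for all genes, and 50 of the 69 fell in the 2 groups of longer genes. The 15 lower members had a median length of 3596 bases, and the shortest of them, SLC1A5, had 2882. The 6 higher members had a median length of 1838 bases, with SLC7A6OS at 4189 the longest. In the group next to the longest, 8 of 30 members were lower and none higher (all genes 31.5% and 5.55%). In the longest group 7 of 20 were lower and 1 higher. With the trend of change on length taken out, 6 members were higher and 5 lower (SLC20A1, SLC36A4, SLC39A14, SLC35F2 and SLC44A2). Of these, 7 were called in both analyses, and the member median was -0.08. The share of all genes called in this fit is not given here, so these counts have no background beside them. The 6 higher were SLC2A8 and SLC7A6OS, called before, and SLC7A5, SLC31A1, SLC35C1 and SLC35C2, not called before. In turn, 14 members called before no longer passed. Of them, SLC39A3 (log2 0.40, limma adjusted p = 0.110), SLC52A2 (0.40, 0.151), SLC66A1 (0.61, 0.207) and SLC50A1 (0.06, 0.906) had been higher, and the rest lower. The medians then were 0.08 for SLC35 genes and 0.04 for the other organic solute carriers, both above 0. The part of the length trend in these calls was not tested further.

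**Figure D4:**
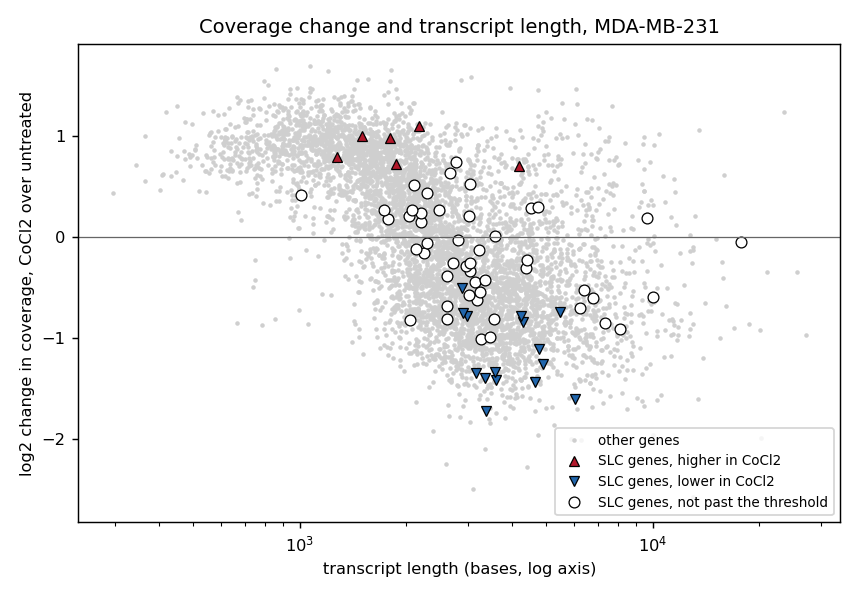
Log2 change in coverage, CoCl2 over untreated MDA-MB-231, against transcript length in bases on a log axis, with SLC genes drawn over all tested genes. Short genes lie mostly above 0 and long genes below, and all 15 lower SLC genes are 2882 bases or longer.

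The untreated libraries also differed from each other on the same genes. For 15 of the 15 lower members the first untreated library was above the second, and for 5 of the 6 higher members it was below it. Of all 1082 genes called lower, 95.4% had the first untreated library above the second. Without the second untreated library the members called numbered 43 (14 higher, 29 lower), beside 2005 higher and 1854 lower of 5773 genes in all. Without the first they numbered 18 (8 higher, 10 lower), beside 1460 higher and 884 lower of 5705 genes, and without CoCl2 library 1 or 2 none (limma, 12 and 11 at an unadjusted p under 0.05).

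Edited reads per gene, which carry mRNA amount and editing together, gave few calls. After division by relative depth (0.973 and 0.923 in CoCl2 libraries against 1.06 and 1.05 in untreated libraries), 45 members could be tested, 89 of the 134 having too few edited reads. None was higher and 2 were lower (limma across 4097 genes, background 12.1% higher and 2.90% lower), and 12 had an unadjusted p under 0.05. The median change over these members was -0.26 (log2), against 0.19 over all genes. SLC49A4 had 4.11 and 4.34 depth-scaled edited reads in CoCl2 libraries against 17.0 and 23.8 in untreated libraries (log2 -2.02, SE 0.544, adjusted p = 0.0348). SLC36A4 had 19.5 and 11.9 in CoCl2 libraries against 46.3 and 43.8 in untreated libraries (log2 -1.50, SE 0.390, adjusted p = 0.0336). Both are also among the genes lower in coverage, and reads enter both measures.

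Other members with wide gaps missed the threshold. SLC12A4 had 7.19 and 9.75 edited reads in CoCl2 libraries against 23.6 and 24.8 in untreated libraries (adjusted p = 0.0514). SLC35C1, the Golgi GDP-fucose carrier, had 14.4 and 18.4 in CoCl2 libraries against 5.66 and 3.81 in untreated libraries (adjusted p = 0.0657). SLC1A5 had 86.3 and 104 in CoCl2 libraries against 153 and 181 in untreated libraries (adjusted p = 0.0656). The values did not overlap, with CoCl2 higher, for 13 members (background 41.3%) and, with CoCl2 lower, for 17 (background 26.5%). All 8 tested genes of the ion class were negative, with a median of -0.74 (log2), while medians were 0.45 for SLC35 genes, 0.64 for sugar and carboxylate carriers, 0.20 for trace metal carriers, -0.36 for amino acid carriers and -0.38 for the other organic solute carriers.

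Scaling the edited reads by TMM instead moved the median of all genes from 0.19 to -0.01, and the calls over all genes from 495 higher and 119 lower to 212 higher and 200 lower. For the members it gave none higher and 5 lower. Without the second untreated library 12 members were called (4 higher, 8 lower), beside 1068 higher and 580 lower of 4710 genes in all. Without the first 3 were called (1 higher, 2 lower), beside 612 higher and 123 lower of 4498 genes, and without CoCl2 library 1 or 2 none (limma, 4 at an unadjusted p under 0.05 in each). With the length trend taken out none was called (limma, 12 at an unadjusted p under 0.05). The count with limma-voom was 2, but only 1 of the 2 members called in the main test was still called there.

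The SLC genes held 0.970% and 0.940% of all edited reads in CoCl2 libraries against 1.23% and 1.14% in untreated libraries. Their share of the reads on listed isoforms was 0.704% and 0.743% in CoCl2 libraries against 0.967% and 0.871% in untreated libraries. Both shares were lower in each CoCl2 library than in each untreated library, as a description without a test. Within the SLC edited reads, ion carriers held 10.6% and 10.3% in CoCl2 libraries against 16.3% and 13.2% in untreated libraries. Trace metal carriers held 19.7% and 18.2% in CoCl2 libraries against 15.6% and 14.4% in untreated libraries. The 10 members with most edited reads held 50.3% and 49.9% in CoCl2 libraries against 49.1% and 49.7% in untreated libraries.

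Editing per covering read is the measure that Ribo-STAMP reads as ribosome association. Of the same 69 members 0 were called in either direction (limma, background 0% higher and 0% lower of 5661 genes), 3 had an unadjusted p under 0.05, and the lowest adjusted p was 0.520. As no gene at all passed with 2 libraries a group, the count of 0 does not show that editing of the members was alike in both groups. The median change was 0.13 (log2 ratio of edited to unedited reads, summed over the listed positions), against 0.20 for all genes. The groups did not overlap, with CoCl2 higher, for 14 members (background 30.1%) and, with CoCl2 lower, for 7 (background 9.61%).

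SLC17A5, the lysosomal sialic acid exporter, had 33.3 and 46.7 edited reads per 100 covering reads in CoCl2 libraries against 20.4 and 4.17 in untreated libraries (unadjusted p = 0.0182 by limma). SLC66A1 had 19.4 and 21.2 in CoCl2 libraries against 6.67 and 4.17 in untreated libraries (unadjusted p = 0.0192 by limma). SLC35B2 had 17.9 and 16.8 in CoCl2 libraries against 10.1 and 12.9 in untreated libraries (unadjusted p = 0.0269 by limma). These 3 genes had the lowest p-values, and none stayed under the threshold after adjustment over all genes. Over all its isoforms SLC66A1 had only 2 and 1 edited reads in untreated libraries, and SLC17A5 had 10 and 1. As only isoforms edited in every library enter, 1 edited read is the floor.

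Long reads assign each read to an isoform. Of 81 members with an isoform listed in all 4 MDA-MB-231 libraries, 18 (22.2%) had more than 1, against 1049 of 6021 genes (17.4%). SLC3A2 had 5, and the isoform ENST00000681657 held 71.9% and 68.2% of its covering reads in CoCl2 libraries against 61.9% and 64.1% in untreated libraries. For SLC35C1 the shorter isoform ENST00000442528, of 1756 bases, held 52.7% and 59.1% in CoCl2 libraries against 31% and 41.3% in untreated libraries, the rest falling on ENST00000314134, of 4171 bases. For SLC30A5, which loads zinc into the secretory pathway, the isoform ENST00000380860, of 1317 bases, held 74.0% and 65.4% in CoCl2 libraries against 46.1% and 61.9% in untreated libraries, the rest falling on ENST00000396591, of 4360 bases. In each of these genes the named isoform had the higher share in both CoCl2 libraries. For SLC35C1 and SLC30A5 it is the shorter isoform, and the part of the length trend described above was not tested. The longer SLC30A5 isoform had few covering reads, 9.5 and 9 in CoCl2 libraries against 48 and 16 in untreated libraries. These isoforms were picked after their shares were seen and were not tested.

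In HEK293T the comparison sets the ribosome-fused editor against the editor alone. The SLC genes had 655, 541 and 605 edited reads in Ribo-STAMP libraries against 30, 41 and 43 in APOBEC1-only libraries, with 68, 71 and 73 members listed against 23, 23 and 21. Their share of all edited reads was 0.996%, 1.06% and 1.02% in Ribo-STAMP libraries against 0.858%, 1.29% and 1.45% in APOBEC1-only libraries, and these overlapped. In all 3 Ribo-STAMP libraries 47 members were listed, 16 of which were in no APOBEC1-only library. In APOBEC1-only libraries 48 members were listed at least once and 4 in all 3, and 1 was listed there alone.

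Enough edited reads for the test were found for 9 of the 100 members listed in HEK293T, and all 9 were higher in Ribo-STAMP cells (limma across 654 genes, background 99.7% higher). No member had 10 or more edited reads in an APOBEC1-only library. The 9 thus passed the filter only through the Ribo-STAMP libraries, where they are high, and this selection largely set their direction. The median change was 3.86 (log2), against 3.75 over all genes tested. Scaled by TMM on edited reads, which removes a global difference between constructs, 0 of the 9 passed (limma, 0 at an unadjusted p under 0.05), and SLC1A5 stood at -1.26 (log2). SLC16A1, a carrier of lactate and other monocarboxylates, had the most, with 121, 91.5 and 57.1 depth-scaled edited reads in Ribo-STAMP libraries against 2.76, 8.84 and 3.60 in APOBEC1-only libraries (log2 3.97). It was listed in none of the 4 MDA-MB-231 libraries. SLC30A9, a mitochondrial zinc carrier, had 46.9, 38.5 and 45.9 in Ribo-STAMP libraries against 1.84, 0.982 and 2.40 in APOBEC1-only libraries (log2 4.06). SLC38A1, of the family of SLC38A2, had 16.2, 29.1 and 45.9 in Ribo-STAMP libraries against 0.919, 0 and 1.20 in APOBEC1-only libraries (log2 4.16). The libraries of each construct stayed apart for these genes, as the filter makes likely, and the share of such genes among all tested was not counted.

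The zinc carriers made up 4 of the 9 genes. SLC30A5 had 23.9, 27.0 and 29.97 edited reads in Ribo-STAMP libraries against 0, 1.96 and 0 in APOBEC1-only libraries (log2 4.28). SLC39A10, a zinc importer, had 35.8, 22.9 and 11.2 in Ribo-STAMP libraries against 0, 1.96 and 1.20 in APOBEC1-only libraries (log2 3.56). SLC39A6, its close relative, had 28.1, 13.5 and 13.1 in Ribo-STAMP libraries against 1.84, 0.982 and 0 in APOBEC1-only libraries (log2 3.35). No library of the editor alone reached the lowest Ribo-STAMP value of its gene, which the filter again makes likely. SLC4A1AP, the adaptor, had 17.0, 37.4 and 17.8 in Ribo-STAMP libraries against 0.919, 0 and 1.20 in APOBEC1-only libraries (log2 3.86). SLC38A2 had 23.9, 13.5 and 25.3 in Ribo-STAMP libraries against 1.84, 1.96 and 0 in APOBEC1-only libraries (log2 3.38). SLC6A15, a carrier of neutral amino acids, had 21.3, 15.6 and 8.43 in Ribo-STAMP libraries against 0.919, 0 and 0 in APOBEC1-only libraries and was not tested.

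SLC1A5 had the smallest change of the 9, with 13.6, 18.7 and 38.4 edited reads in Ribo-STAMP libraries against 0.919, 3.93 and 10.8 in APOBEC1-only libraries (log2 2.22, SE 0.651). It too passed the filter only through the Ribo-STAMP libraries. In both constructs the library numbered 3 was the highest. Whether it differed from the other members was not tested.

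**Figure D5:**
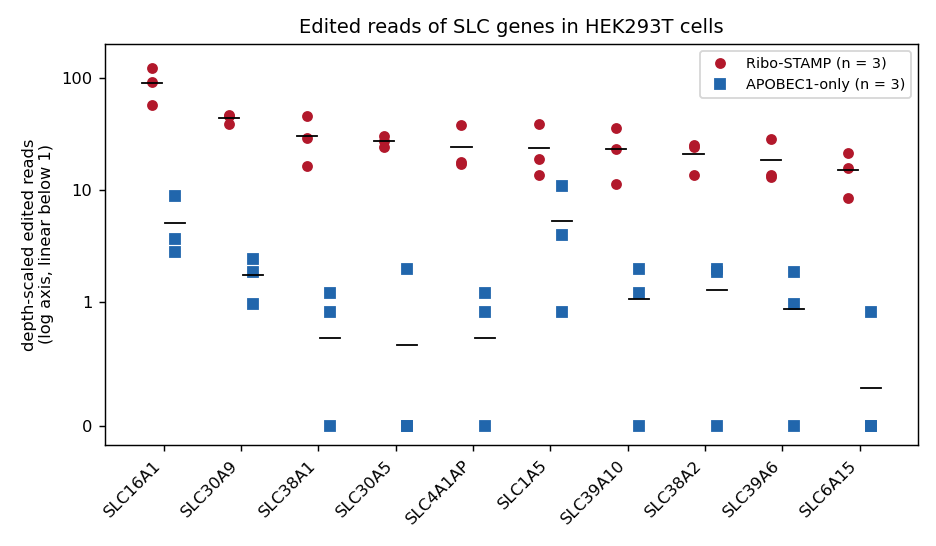
Depth-scaled edited reads of the 10 SLC genes with the most edited reads in HEK293T, on an axis that is logarithmic above 1 and linear below, with each point a Ribo-STAMP or APOBEC1-only library and black bars for group means. SLC16A1 is the highest at 121, 91.5 and 57.1 in Ribo-STAMP libraries, and SLC1A5 has the highest APOBEC1-only point at 10.8.

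Per covering read, 4 members could be tested and 3 were higher in Ribo-STAMP cells (limma across 392 genes, background 95.7% higher). SLC30A9 had 34, 42.0 and 60.5 edited reads per 100 covering reads in Ribo-STAMP libraries against 2.38, 1.47 and 3.64 in APOBEC1-only libraries (log2 ratio change 3.86). SLC16A1 had 13.4, 12.3 and 12.7 in Ribo-STAMP libraries against 0.524, 1.68 and 0.990 in APOBEC1-only libraries (3.58). SLC1A5 had 13.6, 9.35 and 11.5 in Ribo-STAMP libraries against 0.637, 3.23 and 3.79 in APOBEC1-only libraries (2.28). These 3 genes did not overlap between constructs, and the share of such genes among the 392 was not counted. With each library centred on its median gene, none of the 3 passed and SLC1A5 stood at -1.10. SLC19A1, the reduced folate carrier, had 10.0, 36.4 and 5.56 in Ribo-STAMP libraries against 7.14, 11.1 and 6.25 in APOBEC1-only libraries, which overlapped (adjusted p = 0.398). It was the 1 member called, and called lower, with each library centred. The test covers only isoforms edited in all 6 libraries, so it takes isoforms that the editor alone also marked.

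The genes that work beside the carriers in MDA-MB-231 were counted from lists. Of 10 tested partner genes coverage was higher with CoCl2 for 2 and lower for 2, near the 24.5% higher and 19.1% lower of all genes. BSG, the chaperone of monocarboxylate carriers, had 3149 and 3016 covering reads in CoCl2 libraries against 1611 and 1734 in untreated libraries (log2 0.88, SE 0.176, adjusted p = 0.00200). Against the same shares, of 15 vacuolar proton pump genes 9 were higher and 2 lower, of 3 P-type pumps 2 were lower, of 6 ABC transporters none was called (limma, 0 at an unadjusted p under 0.05), and of 19 SLC25 genes 8 were higher and 3 lower. Of the carriers left out, SLC16A3, the lactate exporter, had 4915 and 4889 covering reads in CoCl2 libraries against 2325 and 2240 in untreated libraries (log2 1.10, SE 0.173, adjusted p = 0.00114). SLC2A1, the basal glucose transporter, had 2422 and 2789 in CoCl2 libraries against 4549 and 3311 in untreated libraries (log2 -0.58, SE 0.189, adjusted p = 0.0195). All of these coverage values come from the same libraries and share the length trend described above.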

How the data were processed

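The authors deposited 1 file per library without a header. Per the labels' protocols the libraries were PacBio long-read libraries of polyadenylated RNA. The deposited values are paired counts for each coding position of an isoform: the edited reads and the reads covering it, as read from the values. Neither aligner, edit caller nor use of strand is stated (not given in the sources used here). The submitters' processing notes name the builds hg19 and hg38. MDA-MB-231 entries lay in their gene's GRCh38 coding sequence (GENCODE 29) for 99.8 to 99.9% and HEK293T entries for 2.37 to 4.77%, so coordinates and sequence are given for MDA-MB-231 only.

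Samples were grouped by the labels. Edited reads per gene were summed and divided by relative depth, the median ratio of coverage over shared isoforms (7313 listed in all MDA-MB-231 libraries, 405 in all HEK293T libraries). The depth of whole libraries is not known from these files. Coverage was the median over an isoform's listed positions in a library, summed over isoforms and scaled by TMM (trims of 30% and 5%). Editing per covering read was tested as the log2 ratio of edited to unedited reads, both summed over the listed positions of an isoform (each position counted with the isoform's coverage), with 0.5 added to each. The levels printed divide edited reads by the isoform coverage (times 100), so that a read edited at several positions counts several times. Log2 values with a pseudocount of 1 were tested with limma 3.58.1 in R 4.3.3 (intensity trend, two-sided, Benjamini-Hochberg over all genes tested, threshold 0.05). The minimum was 10 edited reads in at least 2 MDA-MB-231 or 3 HEK293T libraries, or a mean coverage of 10. Coverage and editing per read use only isoforms with an edit in each library of the line. Tables were made with Python 3.11.15, and the scripts were tested on simulated data.

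The members, classes and lists were chosen with earlier results of these data known. Members are named if past the threshold in an MDA-MB-231 measure, among the 10 with most coverage there or most edited reads in HEK293T Ribo-STAMP libraries, among those tested in HEK293T, or among the 2 best covered of a class. Those nearest the threshold, at the ends of a range and in the isoform paragraph were chosen after their values were seen. SLC7A5, SLC35A2 and SLC17A9 are named outside these rules. Same-numbered libraries had correlations of -0.0056 to 0.0228 in MDA-MB-231. In HEK293T they were 0.0872, 0.1203 and 0.3323 for edited reads and 0.1308, 0.0356 and 0.224 for editing per read, the measures tested there, and 0.2298, 0.4412 and 0.5804 for coverage. Not every pair exceeded 0.1 in the measures tested, so no block was used in the main tests. The values of 1 partner gene and the sequence around 1 edited position are not reported here.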

Additional observations from a re-analysis of the deposited data

How the results depend on the processing

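The counts of members called in MDA-MB-231 rest on few libraries. Counts in this section are given without the shares of all genes called under each alternative, so they are not read against a background. For coverage the main count of 21 was 23 with a replicate block, 22 with relative depth, 18 with a coverage minimum of 30, 21 with a pseudocount of 5 and 11 with the length trend taken out; leaving out 1 library gave 0 to 43. For edited reads the main count of 2 was 7 with a replicate block, 5 with TMM, 5 with a pseudocount of 5, 0 with no filter beyond 1 edited read, 1 with positions covered by at least 20 reads and 0 with the length trend taken out; leaving out 1 library gave 0 to 12. With 1 library left out, the lone library of an MDA-MB-231 group is assumed to vary like those of the other group. A changed filter changes which genes are tested, and the cause of the other differences was not tested. Editing per covering read gave 0 throughout, where no gene at all passed in the main test, so this says nothing about stability. In HEK293T the edited-read count of 9 was 0 with TMM, which removes a global difference between constructs (SLC1A5 turned to -1.26, log2), and 31 with no filter beyond 1 edited read; leaving out 1 library gave 10 to 13. Per covering read the count of 3 was 1 (SLC19A1, called lower) with each library centred on its median gene (SLC1A5 turned to -1.10), and leaving out 1 library gave 3 to 6. A replicate block left the HEK293T counts at 9 and 3. The labels give no source of the pairing; in HEK293T every same-numbered pair correlated in coverage (0.2298 to 0.5804), but not every library correlated best with its own number. Only isoforms edited in every library have coverage, so members with few edited reads are not covered by these tests.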
